A study of Mus musculus with 7 samples.

Results

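AMPA receptors carry most of the fast excitatory current at cortical synapses. Each receptor is a channel built from the pore subunits GluA1 to GluA4, encoded by *Gria1* to *Gria4*, and is joined by auxiliary subunits that bring it to the membrane, hold it at the synapse and set how it opens and closes. The transmembrane AMPA receptor regulatory proteins (TARPs), the cornichons and GSG1L are the main families of these partners. Here 10 genes of this group were followed in the cortex of mice that lack the creatine (Cr) transporter. They were taken by symbol from the 24346 genes of the deposited table and comprise the 4 pore subunits, the TARPs *Cacng2*, *Cacng3* and *Cacng8*, the cornichons *Cnih2* and *Cnih3*, and *Gsg1l*. The TARPs *Cacng4*, *Cacng5* and *Cacng7* and the cornichon homologue *Cnih1* are not among the 10 and are described with the other genes of the complex. All 10 were present and all 10 had a mean of at least 1 FPKM, the minimum used for testing.

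Bulk RNA sequencing (RNA-seq) was performed on the cerebral cortex of 4 CrT-/y and 3 CrT+/y male mice of the C57BL/6J background at postnatal day 100, with 1 library for each animal. In CrT-/y males, *Slc6a8*, the gene of the Cr transporter, lacks exons 5 to 7 on the single X chromosome, so the gene is altered in every cell type. CrT+/y animals are wild-type males, and the study took both genotypes from the same litters. Animals are named here by genotype and by the number in the labels, 0 to 3 for CrT-/y and 1 to 3 for CrT+/y. Expression is given as FPKM, the fragments counted on a gene scaled to exon length and to the number of mapped reads in the library.

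*Slc6a8* itself was at 12.4, 14.9, 14.7 and 15.7 FPKM in CrT-/y animals 0 to 3 and at 32.3, 29.6 and 28.0 FPKM in CrT+/y animals 1 to 3, which left 48.1% of the CrT+/y mean (log2 fold change -1.05, adjusted p = 0.0024 with limma). FPKM sum over the whole gene and therefore include exons outside the deletion. All 7 markers of excitatory neurons used here were detected, and their summed expression was 2023, 1915, 1947 and 2117 FPKM in CrT-/y animals 0 to 3 and 2643, 2095 and 2393 FPKM in CrT+/y animals 1 to 3. Of these 7 markers, 2 (*Neurod6* and *Nrgn*) were lower in CrT-/y animals with an adjusted p-value under 0.1 and 0 were higher. The 8 markers of inhibitory neurons summed to 854.3 to 992.9 FPKM against 919.9 to 937.5 FPKM, with 2 higher (*Gad1* and *Dlx1*) and 0 lower by this threshold. By sign alone, 5 of the 8 had a positive log2 fold change and 3 a negative one (median 0.078). Of the 7 excitatory markers 6 had a negative log2 fold change (median of the 7, -0.21). The same held for 6 of 6 markers of oligodendrocytes (median -0.20), 6 of 6 of their precursors (-0.23) and 5 of 6 of endothelium (-0.27). Among markers of astrocytes 5 of 6 were negative (median -0.093), and among those of microglia 4 of 6 (-0.044). All 6 striatal markers and all 3 olfactory bulb markers tested had a positive log2 fold change (median 0.69 in both lists), with a wide spread between animals. The 6 striatal markers summed to between 75.2 FPKM in CrT+/y animal 1 and 327.4 FPKM in CrT-/y animal 1, and the 6 choroid plexus and ependymal markers reached 395.4 FPKM in CrT+/y animal 2 against 8.69 to 54.8 FPKM in the other animals. Olfactory bulb markers were weak throughout, at 6.70 to 18.7 FPKM in CrT-/y and 3.71 to 7.08 FPKM in CrT+/y animals, with 1 of 3 tested genes higher. The 6 markers of oligodendrocyte precursors, at 41.7 to 49.2 FPKM in CrT-/y and 51.1 to 60.9 FPKM in CrT+/y animals, and the 6 endothelial markers, at 100.2 to 116.7 and 117.9 to 135.8 FPKM, did not overlap between genotypes, with 1 and 3 genes lower by the same threshold. By that threshold 7.25% of all genes tested were lower and 2.90% higher in CrT-/y animals. Taken 1 by 1, 15.0% of all genes tested did not overlap with CrT-/y lower. Among markers of astrocytes, oligodendrocytes and microglia, 0 passed in limma. The part of these differences in the results that follow was not tested. In bulk tissue, fewer cells of a type and less RNA per cell cannot be told apart.

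Members of these families resemble each other in sequence, which bears on which gene a read is given to. The ends of the coding sequences are printed for the pore subunits and *Cacng2*, *Cacng3* and *Cacng8*, since these tails are the parts that contact scaffold proteins. Each line holds the last 30 coding bases before the stop codon, 5′ to 3′, with the last 12 bases (4 codons) in capitals, from the GENCODE M21 transcripts of GRCm38.
Gria1: tcagggatgcccttgggaGCCACAGGATTG
Gria2: aacgtatatggcatcgagAGTGTTAAAATT
Gria3: aacgtgtatggaacagaaAGTGTTAAGATC
Gria4: ggattggctgtcattgcaTCGGACCTACCA
Cacng2: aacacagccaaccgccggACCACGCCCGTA
Cacng3: aatccggccaacagacgtACCACGCCTGTC
Cacng8: aacacgctcaacaggaaaACCACGCCCGTG

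These 3 TARPs end in almost the same bases, which encode the PDZ ligand that ties a TARP to PSD-95 (*Dlg4*). *Gria2* and *Gria3* share another tail, which binds GRIP and PICK1. Over the whole coding sequence, the pore subunits were 69.9% to 72.8% identical to each other in aligned bases, these TARPs 67.2% to 72.8% and *Cnih2* and *Cnih3* 77.2%. The longest stretch identical between 2 pore subunits was 37 bases, in *Gria3* and *Gria4*, and it reads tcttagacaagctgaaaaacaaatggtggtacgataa. Between these TARPs the longest was 23 bases and between *Cnih2* and *Cnih3* 19 bases. All of these are shorter than the 150-base reads, and the authors kept uniquely aligned reads with at most 2 mismatches.

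Of the 10 genes, 4 were downregulated in the CrT-/y cortex and 0 were upregulated at an adjusted p-value under 0.1 (limma, Benjamini-Hochberg adjustment over the 12988 genes tested). They were *Cacng2*, *Cacng3*, *Gria3* and *Gria4*. Among all genes tested, 7.25% were downregulated and 2.90% upregulated by the same rule, or 10.1% in either direction. A negative log2 fold change was found for 7 of the 10 genes, including *Cnih3*, which turned positive after quantile normalization and upper quartile scaling, and for 58.2% of all genes tested. Only for the 4 called genes did the genotypes not overlap, always with the CrT-/y animals lower, whereas 15.0% of all genes tested did not overlap with CrT-/y lower, 6.57% with CrT-/y higher and 21.6% either way. The median log2 fold change was -0.14 for the 10 genes and -0.033 for all genes tested. Across all genes, the share of calls that were downregulated depended on how animals were scaled to each other, from 71.4% in the deposited values to 51.2% after quantile normalization, 51.8% after median centring, 53.3% after a correction for transcript length and 38.5% after upper quartile scaling. Under each of these alternative scalings only *Cacng2* of the 10 genes kept an adjusted p-value under 0.1, while all 4 genes kept a negative log2 fold change.

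**Figure D1:**
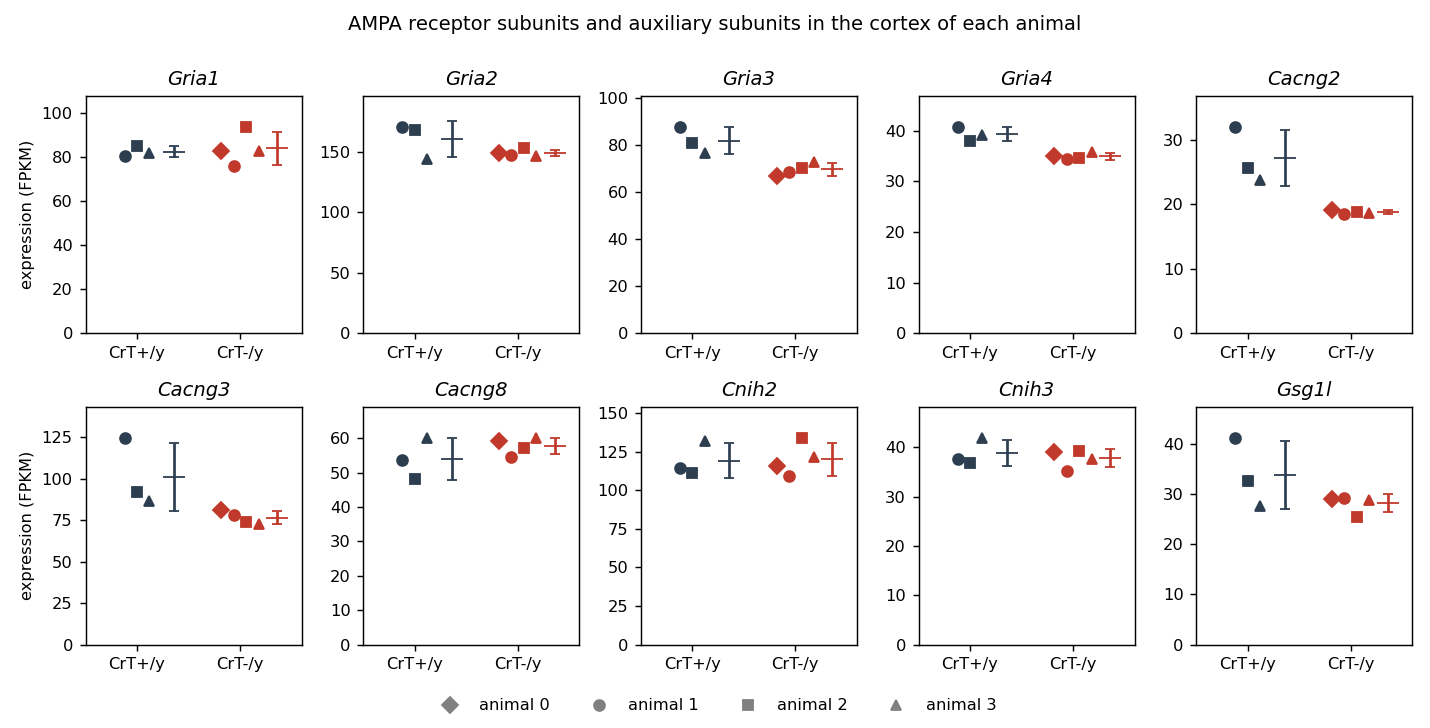
Expression in FPKM (vertical axes, from 0) of each of the 10 genes by genotype, 1 point for each animal, with the mean and SD beside the points and marker shapes giving the animal number. *Cacng2* ranged over 18.5 to 19.2 FPKM in CrT-/y and 23.7 to 32.0 FPKM in CrT+/y cortex, whereas the genotypes overlapped for *Gria1*, *Gria2*, *Cacng8*, *Cnih2*, *Cnih3* and *Gsg1l*.

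The largest difference among the 10 genes was in *Cacng2*, which encodes stargazin (TARP γ-2), the founding TARP, needed for AMPA receptors to reach the surface of cerebellar granule cells. The gene lies on chromosome 15 from 77991748 to 78120028 on the minus strand. *Cacng2* was at 19.2, 18.5, 18.8 and 18.6 FPKM in CrT-/y animals 0 to 3 and at 32.0, 25.6 and 23.7 FPKM in CrT+/y animals 1 to 3. The CrT-/y animals were within 1 FPKM of each other, while the CrT+/y animals were spread over a range wider than the gap between the genotypes. Mean expression was 18.8 ± 0.282 FPKM (SD, n = 4) in CrT-/y, or 69.3% of the 27.1 ± 4.35 FPKM (SD, n = 3) in CrT+/y cortex. The log2 fold change was -0.51 (95% interval -0.72 to -0.31, adjusted p = 0.032 with limma). Over 20 alternative settings it stayed between -0.60 and -0.39 and kept its call in 19, and without CrT-/y animal 1 the adjusted p-value was 0.11 (limma).

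*Cacng3* encodes TARP γ-3, a close relative of stargazin that is abundant in the cortex. It lies on chromosome 7 from 122670492 to 122769393 on the plus strand. *Cacng3* was at 81.3, 78.1, 73.9 and 72.4 FPKM in CrT-/y animals 0 to 3 and at 124.7, 91.7 and 86.6 FPKM in CrT+/y animals 1 to 3. The genotypes did not overlap, and CrT+/y animal 1 stood far above the other two. Mean expression was 76.4 ± 4.06 FPKM (SD, n = 4) in CrT-/y against 101.0 ± 20.7 FPKM (SD, n = 3) in CrT+/y cortex, and the log2 fold change was -0.38 (95% interval -0.64 to -0.13, adjusted p = 0.091 with limma). Without CrT+/y animal 1 the log2 fold change was -0.22 (adjusted p = 0.15 with limma), and the call held in 6 of the 20 alternatives.

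*Cacng8* encodes TARP γ-8 and is best known from hippocampal synapses. It lies on chromosome 7 from 3390683 to 3415648 on the plus strand. *Cacng8* was at 59.2, 54.6, 57.2 and 60.0 FPKM in CrT-/y animals 0 to 3 and at 53.7, 48.1 and 60.1 FPKM in CrT+/y animals 1 to 3. The genotypes overlapped, and the highest value of all came from CrT+/y animal 3. Its log2 fold change was 0.10 (95% interval -0.070 to 0.28, adjusted p = 0.43 with limma). Without CrT+/y animal 3 it was 0.18 and passed the threshold (adjusted p = 0.077 with limma), in a fit where 3736 of all genes passed. The 6 hippocampal markers summed to 50.6 to 59.3 FPKM in CrT-/y and 45.7 to 54.2 FPKM in CrT+/y animals, and their part in the *Cacng8* values was not tested.

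Among the pore subunits, *Gria3* and *Gria4* were downregulated. *Gria3* encodes GluA3, which pairs mostly with GluA2 in receptors that cycle steadily at synapses, and lies on chromosome X from 41400854 to 41678601 on the plus strand, the same chromosome as *Slc6a8*. *Gria3* was at 66.8, 68.5, 70.2 and 73.0 FPKM in CrT-/y animals 0 to 3 and at 87.8, 80.9 and 76.6 FPKM in CrT+/y animals 1 to 3. The genotypes did not overlap, and the highest CrT-/y and the lowest CrT+/y animal, both number 3, were close to each other. Mean expression was 69.6 ± 2.62 FPKM (SD, n = 4) in CrT-/y, or 85.1% of the 81.8 ± 5.68 FPKM (SD, n = 3) in CrT+/y cortex. The log2 fold change was -0.23 (95% interval -0.37 to -0.093, adjusted p = 0.068 with limma). After correction for transcript length it was -0.17 (adjusted p = 0.11 with limma), and the call held in 6 of the 20 alternatives.

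*Gria4* encodes GluA4, the subunit with fast kinetics that is prominent in parvalbumin interneurons. It lies on chromosome 9 from 4417896 to 4796234 on the minus strand. *Gria4* was at 35.01, 34.4, 34.6 and 35.8 FPKM in CrT-/y animals 0 to 3 and at 40.8, 38.0 and 39.2 FPKM in CrT+/y animals 1 to 3. Both genotypes were tight and did not overlap. Mean expression was 34.9 ± 0.647 FPKM (SD, n = 4) in CrT-/y against 39.3 ± 1.43 FPKM (SD, n = 3) in CrT+/y cortex, and the log2 fold change was -0.17 (95% interval -0.28 to -0.057, adjusted p = 0.090 with limma). Its call, too, held in 6 of the 20 alternatives, with a log2 fold change between -0.19 and -0.11.

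The other two pore subunits did not pass the threshold. *Gria2* encodes GluA2, which makes the receptor impermeable to calcium once its transcript is edited, and lies on chromosome 3 from 80681450 to 80802835 on the minus strand. *Gria2* was at 149.1, 146.9, 152.6 and 146.6 FPKM in CrT-/y animals 0 to 3 and at 170.6, 167.7 and 143.6 FPKM in CrT+/y animals 1 to 3. CrT+/y animals 1 and 2 were above all CrT-/y animals and CrT+/y animal 3 was below all of them. The log2 fold change was -0.11 (95% interval -0.26 to 0.045, adjusted p = 0.35 with limma). Without CrT+/y animal 3 it was -0.19 and passed the threshold (adjusted p = 0.025 with limma), as did 3736 of all genes. *Gria1* encodes GluA1, the subunit added to synapses during potentiation, and lies on chromosome 11 from 57011387 to 57330244 on the plus strand. *Gria1* was at 83.0, 76.2, 94.0 and 83.1 FPKM in CrT-/y animals 0 to 3 and at 80.6, 85.3 and 82.1 FPKM in CrT+/y animals 1 to 3. The CrT-/y animals enclosed the CrT+/y range on both sides, and the log2 fold change was 0.021 (95% interval -0.14 to 0.18, adjusted p = 0.88 with limma).

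Neither *Cnih2* nor *Cnih3* passed the threshold. They encode small proteins that escort AMPA receptors out of the endoplasmic reticulum and slow their closing, and lie on chromosome 19 (5092868 to 5098521, minus strand) and chromosome 1 (181352628 to 181460641, plus strand). *Cnih2* was at 115.8, 109.2, 134.2 and 121.4 FPKM in CrT-/y animals 0 to 3 and at 114.8, 111.0 and 132.4 FPKM in CrT+/y animals 1 to 3. In the same order of animals, *Cnih3* was at 39.1, 35.2, 39.1 and 37.7 FPKM for CrT-/y, then 37.7, 36.9 and 41.9 FPKM for CrT+/y. For both genes the genotypes covered nearly the same range. The log2 fold changes were 0.0090 (95% interval -0.18 to 0.20) for *Cnih2* and -0.039 (95% interval -0.18 to 0.11) for *Cnih3*, with adjusted p-values of 0.96 and 0.74 (limma).

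*Gsg1l*, whose product lowers the current through AMPA receptors where most TARPs raise it, lies on chromosome 7 from 125878420 to 126082411 on the minus strand. *Gsg1l* was at 29.0, 29.2, 25.4 and 28.8 FPKM in CrT-/y animals 0 to 3 and at 41.2, 32.5 and 27.6 FPKM in CrT+/y animals 1 to 3. CrT+/y animal 1 was well above the rest, and CrT+/y animal 3 lay inside the CrT-/y range. The log2 fold change was -0.25 (95% interval -0.51 to 0.022, adjusted p = 0.23 with limma). It was -0.094 without CrT+/y animal 1 (adjusted p = 0.60 with limma). Without CrT+/y animal 3 it was -0.38 (adjusted p = 0.036 with limma), in a fit where 3736 of all genes passed.

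**Figure D2:**
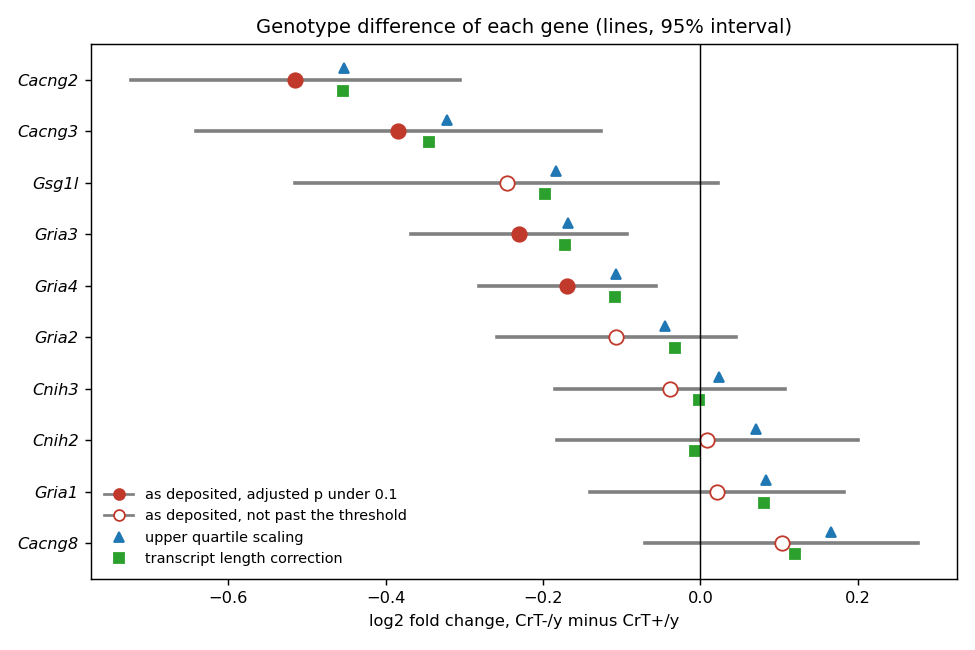
Log2 fold change (horizontal axis, CrT-/y minus CrT+/y) of each gene with its 95% interval, and its value after upper quartile scaling (triangles) and after correction for transcript length (squares). Filled circles mark the 4 downregulated genes; *Cacng2* stays furthest from 0 under each scaling (-0.51, -0.45 and -0.45), and *Gria4* moves from -0.17 to -0.11.

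FPKM allow levels to be compared between genes. In CrT+/y animals the order by mean FPKM was *Gria2*, *Cnih2*, *Cacng3*, *Gria1*, *Gria3*, *Cacng8*, *Gria4*, *Cnih3*, *Gsg1l* and *Cacng2*, from 160.7 to 27.1 FPKM. *Gria2* was above *Cnih2*, *Gria3* above *Cacng8* and *Cacng8* above *Gria4* with no overlap over the 7 animals. Within the CrT+/y animals, *Cacng3* also lay above *Gria1* in 3 of 3, but it did so in only 1 of 4 CrT-/y animals. *Gria1* and *Gria3*, *Gria4* and *Cnih3*, *Cnih3* and *Gsg1l*, *Gsg1l* and *Cacng2*, and *Cnih2* and *Cacng3* overlapped among CrT+/y animals.

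The 4 pore subunits together reached 325.9 to 351.4 FPKM in CrT-/y and 341.4 to 379.8 FPKM in CrT+/y animals. *Gria2* made up 44.1% ± 0.877 (SD, n = 4) of this sum in CrT-/y and 44.0% ± 1.70 (SD, n = 3) in CrT+/y animals. The share of *Gria3* was 19.97% to 21.6% for CrT-/y against 21.8% to 23.1% for CrT+/y and did not overlap, while the shares of *Gria1*, *Gria2* and *Gria4* did. *Cacng2*, *Cacng3* and *Cacng8* together were at 150.0 to 159.7 FPKM in CrT-/y and 165.3 to 210.3 FPKM in CrT+/y animals. Within the sum of these 3 genes, which leaves out the other TARPs, *Cacng2* took 11.998% to 12.6% in CrT-/y and 13.9% to 15.5% in CrT+/y animals, and *Cacng8* took 36.1% to 39.7% against 25.5% to 35.3%, both without overlap. The sums of *Cnih2* and *Cnih3* overlapped, at 144.3 to 173.3 against 147.9 to 174.3 FPKM. A share also moves with the other genes in its sum, and the FPKM of *Cacng8* itself overlapped between genotypes. These sums and shares are descriptions and were not tested.

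**Figure D3:**
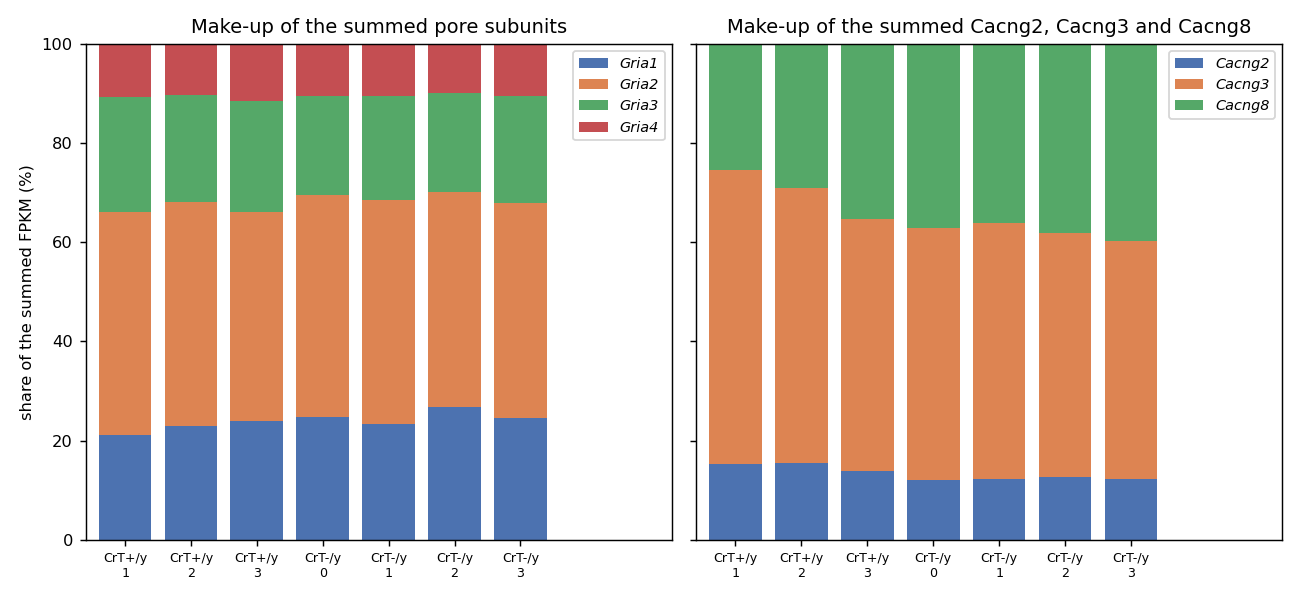
Share in percent (vertical axis) of each gene in the summed FPKM of the pore subunits (left) and of *Cacng2*, *Cacng3* and *Cacng8* (right), 1 bar for each animal. *Cacng8* takes 25.5% of the 3-gene sum in CrT+/y animal 1 and 39.7% in CrT-/y animal 3, while *Gria2* stays between 42.1% and 45.1% of the pore subunits.

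A ratio of 2 genes within an animal does not depend on a scaling factor between animals, but it does not remove a trend with transcript length. Of 9 such ratios, 2 did not overlap between genotypes. The ratio of *Cacng2* to *Gria2* was 0.129, 0.126, 0.123 and 0.127 in CrT-/y animals 0 to 3 and 0.188, 0.152 and 0.165 in CrT+/y animals 1 to 3. *Cacng2* to *Cacng8* was at 0.324, 0.339, 0.329 and 0.310 in CrT-/y animals against 0.597, 0.532 and 0.394 in CrT+/y animals. In both ratios the CrT-/y values were the lower ones, and they were close to each other. On the log2 scale the differences were -0.41 and -0.62, each with an exact permutation p of 0.0286 (two-sided), the smallest that 4 against 3 animals allow. After adjustment over the 9 ratios both had p = 0.13 (exact permutation test) and did not pass a threshold of 0.1. With a correction for transcript length the 2 differences were -0.42 and -0.57, again with an adjusted p of 0.13 (exact permutation test). For the ratio of *Cacng2* to *Cacng3*, the difference was -0.13 with overlapping groups (exact permutation p = 0.086, adjusted 0.19). The 6 remaining ratios, of *Gria1*, *Gria3*, *Gria4*, *Cnih2* and *Gsg1l* to *Gria2* and of *Cnih2* to *Cnih3*, had exact permutation p-values of 0.086 to 0.54.

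The number of calls among the 10 genes also depended on which animals entered the comparison. Without CrT+/y animal 3, 7 of the 10 genes had an adjusted p-value under 0.1 (limma), with *Gria2* and *Gsg1l* lower and *Cacng8* higher besides the 4 above. In that fit 3736 of the 12997 genes tested passed, against 1318 of 12988 with all 7 animals. Without CrT-/y animal 1, 0 of the 10 genes passed in limma, where 64 of all genes passed. When any of the other 5 animals was left out, *Cacng2* was the only gene of the 10 called. CrT+/y animals 1 and 2 differed from animal 3 across the transcriptome in a trend with transcript length. Per doubling of length, the deviation of a gene from its mean over all animals changed by 0.034 and 0.063 on the log2 scale in CrT+/y animals 1 and 2, by -0.026 in CrT+/y animal 3 and by -0.030 to -0.012 in CrT-/y animals. The transcripts of the 4 pore subunits have 5192 to 10371 bases and that of *Cacng2* 5510 bases, against a median of 3085 bases over the genes tested. The transcripts of *Cacng3*, *Cnih3*, *Cacng8* and *Cnih2* have 2777, 2668, 1897 and 1343 bases. After the length trend was taken out, the log2 fold changes were -0.45 for *Cacng2*, -0.34 for *Cacng3*, -0.17 for *Gria3* and -0.11 for *Gria4*. CrT+/y animal 1, the highest animal for *Cacng2*, *Cacng3*, *Gria3*, *Gria4* and *Gsg1l*, was also the highest in excitatory neuron markers and the lowest in striatal markers, and the part of these differences in the values was not tested.

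**Figure D4:**
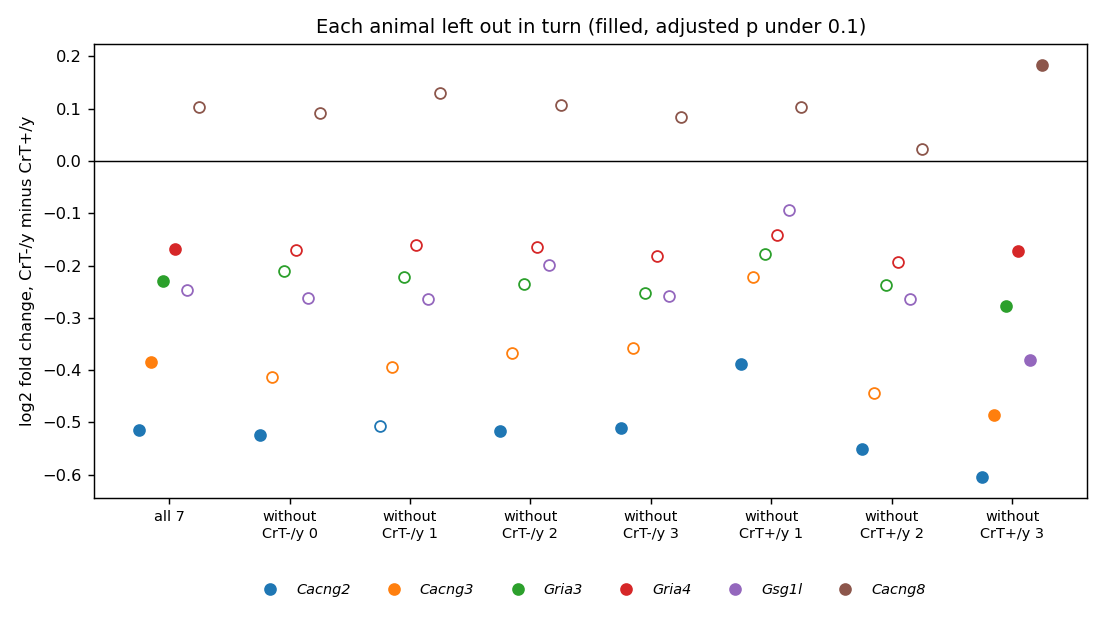
Log2 fold change (vertical axis, CrT-/y minus CrT+/y) of 6 genes with all 7 animals and with each animal left out in turn, filled where the adjusted p-value was under 0.1. *Cacng2* ranges from -0.60 to -0.39 and is open only without CrT-/y animal 1, and *Cacng3* ranges from -0.49 to -0.22.

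Other genes of the AMPA receptor complex were taken from a list by symbol, comprising 15 further auxiliary subunits, 7 biogenesis factors, 19 trafficking and anchoring genes and 9 kinases and phosphatases. All 50 were tested. In the CrT-/y cortex 10 were downregulated and 1 was upregulated, against 7.25% and 2.90% of all genes. The genotypes did not overlap in either direction for 18 of the 50, against 21.6% of all genes tested. The median log2 fold change of the 50 was -0.13. Among the auxiliary subunits, *Prrt1* (SynDIG4) and *Prrt2* are membrane proteins of the same family as *Syndig1*. *Prrt1* was at 84.3, 66.1, 75.9 and 76.1 FPKM in CrT-/y animals 0 to 3 and at 129.9, 112.9 and 92.5 FPKM in CrT+/y animals 1 to 3. The log2 fold change of *Prrt1* was -0.55 (adjusted p = 0.042 with limma). *Prrt2* was at 119.5 to 128.9 FPKM in CrT-/y and 140.4 to 187.3 FPKM in CrT+/y animals, and neither gene overlapped between genotypes. *Syndig1* (-0.30, adjusted p = 0.090 with limma) and *Shisa9*, which encodes CKAMP44 (-0.26, adjusted p = 0.090 with limma), were closer to the threshold, and *Shisa9* overlapped between genotypes. *Prrt1* kept its call in 17 of 20 alternatives, *Prrt2* in 13, *Syndig1* in 7 and *Shisa9* in 5. The 3 other TARPs and *Cnih1*, singled out after their values were seen, did not pass the threshold in limma. *Cacng7* (TARP γ-7), the most abundant of all 6 TARPs measured, was at 142.5, 131.0, 129.3 and 138.6 FPKM in CrT-/y animals 0 to 3 and at 200.1, 171.2 and 136.4 FPKM in CrT+/y animals 1 to 3, with overlapping genotypes. Its log2 fold change was -0.31 (adjusted p = 0.14 with limma), against 0.55 for *Cacng5* at 2.31 to 5.41 FPKM (adjusted p = 0.14 with limma), -0.095 for *Cacng4* (adjusted p = 0.70 with limma) and -0.16 for *Cnih1* (adjusted p = 0.20 with limma).

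The upregulated gene was *Shisa8*, a weakly expressed relative of *Shisa9*. *Shisa8* was at 4.05, 3.75, 3.23 and 2.06 FPKM in CrT-/y animals 0 to 3 and at 1.42, 2.04 and 1.96 FPKM in CrT+/y animals 1 to 3. CrT-/y animal 3 was barely above the CrT+/y animals. The log2 fold change was 0.79 (adjusted p = 0.081 with limma) and its call held in 10 of the 19 alternatives in which it was tested. Summed striatal markers in the same order of animals were 271.8, 327.4, 171.4 and 132.1 FPKM, then 75.2, 283.9 and 143.7 FPKM, and their part in the *Shisa8* values was not tested.

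Of the biogenesis factors, *Sacm1l*, *Abhd6* and *Frrs1l* were downregulated. *Frrs1l* encodes a protein of the endoplasmic reticulum that helps assemble AMPA receptors, *Abhd6* a lipase that binds free pore subunits, and *Sacm1l* a phosphoinositide phosphatase that was found with them. *Sacm1l* was at 31.0, 27.8, 29.7 and 30.6 FPKM in CrT-/y animals 0 to 3 and at 38.2, 38.6 and 35.8 FPKM in CrT+/y animals 1 to 3, and differed by -0.33 on the log2 scale (adjusted p = 0.030 with limma). *Abhd6* was at 21.2 to 23.2 FPKM against 25.5 to 26.8 FPKM, and *Frrs1l* at 76.0 to 93.0 FPKM against 101.4 to 112.8 FPKM. None of the 3 overlapped between genotypes, and 15.0% of all genes tested did not overlap with CrT-/y lower. *Sacm1l* kept its call in 18 of 20 alternatives, *Frrs1l* in 14 and *Abhd6* in 10.

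Among trafficking and anchoring genes, *Akap5* and *Dlg1* were downregulated. *Akap5* (AKAP79/150) anchors protein kinase A and calcineurin at the receptor, and *Dlg1* (SAP97) binds the tail of GluA1. *Akap5* was at 25.4, 23.2, 23.2 and 24.0 FPKM in CrT-/y animals 0 to 3 and at 35.3, 33.3 and 27.9 FPKM in CrT+/y animals 1 to 3, which is -0.42 on the log2 scale (adjusted p = 0.037 with limma). *Dlg1* was at 49.4 to 54.3 FPKM against 56.1 to 64.8 FPKM (-0.24, adjusted p = 0.069 with limma). Of the kinases and phosphatases, *Ppp3r1*, the regulatory subunit of calcineurin, was downregulated (-0.25, adjusted p = 0.0996 with limma, the value nearest to the threshold). Its catalytic partner *Ppp3ca* was at 339.2 to 378.6 FPKM against 387.0 to 446.6 FPKM (-0.19, adjusted p = 0.13 with limma). *Akap5* kept its call in 17 of 20 alternatives, *Dlg1* in 7 and *Ppp3r1* in 6. The number of calls in this list also rested on single animals, and was 18 without CrT+/y animal 3, 6 without CrT+/y animal 2, 1 without CrT+/y animal 1, and 5, 0, 1 and 6 without CrT-/y animals 0 to 3 (limma). Over all genes, the calls in the same order of fits were 3736, 753 and 247, then 614, 64, 223 and 342, against 1318 with every animal.

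**Figure D5:**
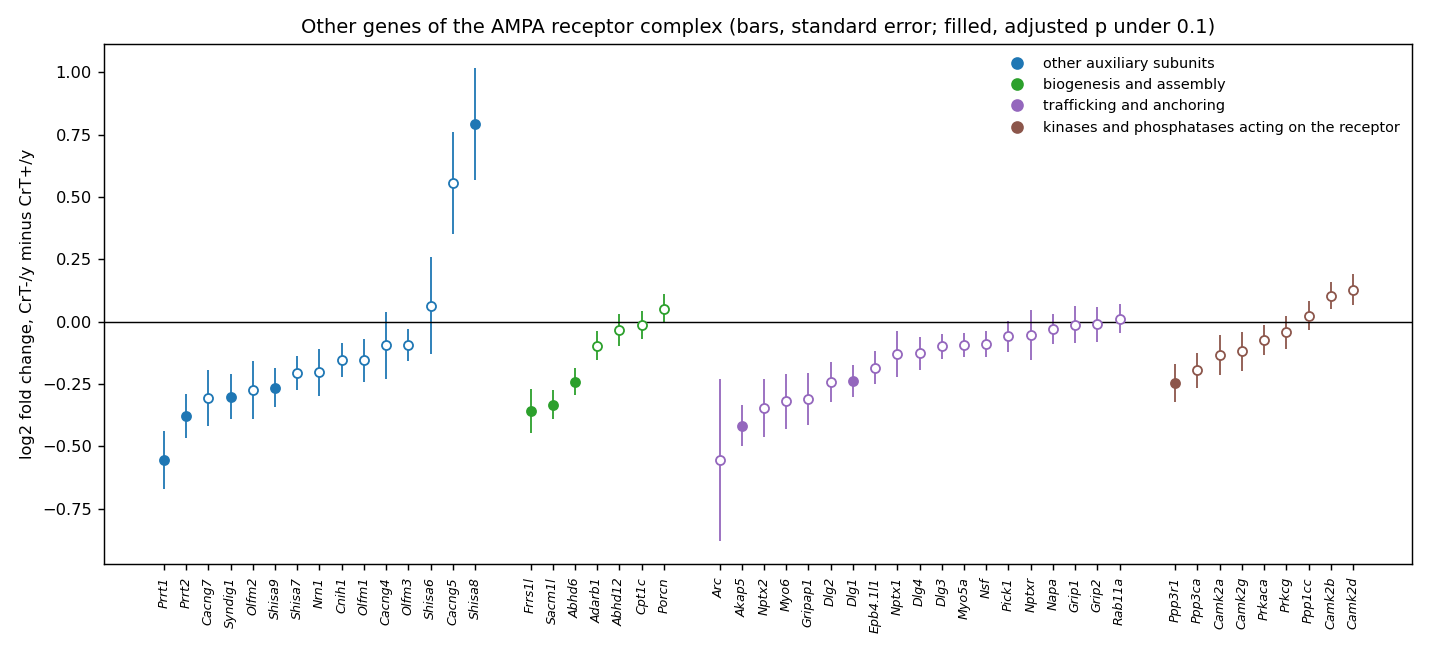
Log2 fold change (vertical axis, CrT-/y minus CrT+/y) with its standard error for the 50 other genes of the AMPA receptor complex, grouped by role in colour and sorted within each group. Filled points mark the 10 downregulated genes and *Shisa8*, which is the highest point at 0.79; *Prrt1* is the lowest filled point at -0.55.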

How the data were processed

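RNA-seq of the cortex of 4 CrT-/y (KO) and 3 CrT+/y (WT) mice was used. The authors aligned reads to mm10 with the Tuxedo protocol (Bowtie and Cuffnorm in the submitters' processing notes, versions not given in the sources used here), kept uniquely aligned reads with at most 2 mismatches, and deposited FPKM for each gene and animal. Whether Cuffnorm scaled libraries to each other beyond FPKM is not given. FPKM are not counts, so no count model was used. The depth of each library was not read from the table, because in weakly expressed genes the most frequent ratio between libraries held at most 14.0% of genes.

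For testing, log2(FPKM + 0.1) of genes whose mean reached 1 FPKM was fitted on genotype with limma 3.58.1 (R 4.3.3, empirical Bayes with a mean-variance trend). P-values were Benjamini-Hochberg adjusted over 12988 genes, and an adjusted p-value under 0.1 was the threshold, as in the study. Fold changes are on this log2 scale. Intervals are 95% intervals of the moderated fit. Over all genes this fit called 941 lower and 377 higher in CrT-/y animals. The study, in its own limma run, reported somewhat more upregulated than downregulated genes. Ratios were tested with exact permutation over the 35 splits (two-sided). The fit was tested on simulated data with independent values for each gene and animal. These held no length trend or other difference shared by the genes of an animal, so the test does not cover such effects.

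Positions, transcript lengths and coding sequences came from GENCODE M21 (GRCm38, the assembly also called mm10). The longest principal transcript stood for each gene. Of 24346 symbols, 23310 matched directly and 674 through a synonym.

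The members, lists and tests were chosen with earlier results of these data known. Named were all 10 members, *Slc6a8* and, of the other complex genes, those past the threshold and the 2 with the smallest p-value in each group. Alternatives comprised other pseudocounts (1 and 0.01), other minimum means (none, 0.1 and 5 FPKM), median centring, upper quartile scaling, quantile normalization, a transcript length correction, no variance trend, array weights, a replicate block with and without the length correction, and each animal left out in turn. A marker gene of the initial list is not reported here.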

Additional observations from a re-analysis of the deposited data

Results flagged for a closer look

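In CrT-/y animal 2, *Gsg1l* was at 25.4 FPKM while the CrT-/y animals 0, 1 and 3 were between 28.8 and 29.2 FPKM, a gap of 0.909 of the whole range. The ratio of *Gsg1l* to *Gria2* in the same animal was 0.167, against 0.195 to 0.199 in the other 3, a gap of 0.872 of the range. Both exceed Dixon's 95% critical value for 4 animals. Such gaps were looked for in 31 values, chance gives about 1 in 20, and the 2 found here share the *Gsg1l* measurement.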

How the results depend on the processing

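Of the 10 genes, 4 passed the threshold as reported; the count was 1 without a filter on low values, without a variance trend, and after quantile normalization, upper quartile scaling, median centring or the length correction, and it ran from 0 to 7 when single animals were left out. The other complex genes gave 11 calls as reported, 5 without a filter, 7 after quantile normalization, upper quartile scaling or median centring, 6 without a variance trend, and 0 to 18 with single animals left out. All genes gave 1318 calls as reported, 730 without a filter and 64 to 3736 with single animals left out. Deviations from the genotype mean correlated between same-numbered animals with r = -0.078, 0.046 and -0.051 for numbers 1 to 3. Between animals with different numbers r ran from -0.20 to 0.25. Whether same-numbered animals shared a litter or a batch was not tested. With the replicate block, to which CrT-/y animal 0 adds nothing, there were 2 calls among the 10 genes (*Cacng2* and *Cacng3*), 5 among the other complex genes and 576 in all. With the replicate block and the length correction there were 1, 3 and 333. Signs turned only for values near 0. With single animals left out, *Gria1* ran from -0.034 without CrT-/y animal 2 to 0.067 without CrT-/y animal 1. *Cnih2* was at -0.0074 after the length correction and between -0.045 and -0.017 without CrT-/y animal 2, CrT+/y animal 1 or CrT+/y animal 2, and reached 0.086 without CrT+/y animal 3. *Cnih3* was at 0.010 after quantile normalization, 0.023 after upper quartile scaling and ran from -0.074 to 0.017 with single animals left out. The log2 ratio of *Cnih2* to *Cnih3* was -0.0051 after the length correction, and that of *Gria4* to *Gria2* ran from -0.12 without CrT+/y animal 2 to 0.014 without CrT+/y animal 3. For ratios, leaving out an animal or flipping genotypes within the 3 shared numbers (smallest p 0.25, exact) allows no low p-value, so these show the direction only. The causes of these changes were not tested.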
